A study of Mus musculus with 16 samples.

Results

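The genes described here act in serine synthesis, in the handling of folate-bound 1-carbon units and in the amino acid stress response. They are Mthfd2, Mthfd1, Mthfd1l, Shmt1, Shmt2, Phgdh, Psat1, Psph, Atf4 and Asns, 10 of the 53764 genes in the deposited count table of mouse left ventricle. The set was listed by gene name and was chosen by the level of Mthfd2, which was higher on a high fat, high sucrose diet (HFHS) than on a low-fat control diet (CD). The choice did not say in which mice. It is read here as the comparison of mice given no drug, whose values are therefore given below as a description, without a test. If treated mice were also looked at for the choice, the test of Mthfd2 among them is not independent of it. The label of mitochondrial folate and serine metabolism covers only some of the members: Mthfd1 and Shmt1 encode cytosolic enzymes, the 3 serine synthesis enzymes are cytosolic, Atf4 encodes a transcription factor and Asns makes asparagine.

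The mice were male C57BL/6J animals, 8 weeks old when the feeding began, and stayed for 4 months on their diet. Groups were CD untreated, CD ertugliflozin, HFHS untreated and HFHS ertugliflozin, with 4 libraries each, and ertugliflozin was mixed into the food at 0.5 mg per g. Ertugliflozin inhibits SGLT2, the glucose transporter of the kidney tubule. Each library came from the frozen left ventricle of an animal that the submitters picked as representative of a larger group, so p-values measure the spread between the chosen animals.

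As background, mammalian cells load 1-carbon units from serine onto tetrahydrofolate. In mitochondria SHMT2 splits serine into glycine and a folate-bound carbon, MTHFD2 or its isozyme MTHFD2L oxidizes that carbon, and MTHFD1L releases it as formate. Formate leaves for the cytosol, where MTHFD1 recaptures it for purine, thymidylate and methyl group synthesis and SHMT1 can run the serine reaction in either direction. Serine itself is made from a glycolytic intermediate by PHGDH, PSAT1 and PSPH in that order. ATF4 is translated preferentially when the initiation factor eIF2 is phosphorylated, and PSAT1, PHGDH, SHMT2, MTHFD2 and ASNS are among the genes it is known to activate. MTHFD2 is known as an enzyme of embryonic and dividing cells that is low in most adult organs.

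Levels are given as CPM, counts divided by the library's sum over the genes that passed the filter on low counts and by its TMM scaling factor. Library totals over all genes ran from 14637669 to 21452212 counts. The filter on low counts was passed by 15841 genes, all 10 members included. A gene was called when its adjusted p in edgeR's quasi-likelihood test, over all 15841 genes, was under 0.05. Of 10 ventricular cardiomyocyte markers none was at 0, and they summed to 101000 to 122000 CPM per library. Valve and cartilage markers summed to 52.1 to 253 CPM in CD untreated and 22.9 to 75.6 CPM in the other 12 libraries. Atrial markers summed to 260 to 1240 CPM against 230 to 331 CPM. The differences of Mthfd2 and Psat1 from CD untreated are therefore also given without its replicates 2 and 3, the 2 highest in valve markers. Its replicate 1 held the highest atrial sum, 1240 CPM, and these differences are also given without that library.

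Mthfd2 (ENSMUSG00000005667, chromosome 6, 83305691 to 83325908, minus strand, GRCm38) and Psat1 (ENSMUSG00000024640, chromosome 19, 15904678 to 15947337, minus strand) were the members that differed most by diet. Asns (ENSMUSG00000029752, chromosome 6, 7675169 to 7693254, minus strand) had the next largest difference in the untreated comparison, read as the one that chose the list. The upstream sequences of these 3 genes are shown for that reason. All 10 members had an entry among the RefSeq promoter windows (GRCm38.p6), 11 windows in all because Psat1 has 2. Each window holds 250 bases before and 50 after a start. The bases before the start are printed 5′ to 3′, whole for Mthfd2 and for Psat1's second window. Capitals mark CCAAT or its reverse complement ATTGG, and for Asns, shown with its last 30 bases before the start, the C/EBP-ATF motif.
Mthfd2, chr6:83317605-83317854, minus strand: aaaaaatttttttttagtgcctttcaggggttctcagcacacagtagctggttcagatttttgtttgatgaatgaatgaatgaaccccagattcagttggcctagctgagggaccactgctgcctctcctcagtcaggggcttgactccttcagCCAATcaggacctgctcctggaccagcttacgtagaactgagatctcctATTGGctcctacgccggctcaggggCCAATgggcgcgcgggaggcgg
Psat1, chr19:15925060-15925309, minus strand: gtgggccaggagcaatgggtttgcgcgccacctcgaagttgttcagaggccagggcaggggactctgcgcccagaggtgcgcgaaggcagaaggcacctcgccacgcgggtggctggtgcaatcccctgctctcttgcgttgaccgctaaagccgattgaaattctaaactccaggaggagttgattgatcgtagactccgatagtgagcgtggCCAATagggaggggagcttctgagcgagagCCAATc
Asns, chr6:7693210-7693239, minus strand: agccacaTGATGAAActtcccgcacgcgtt

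These RefSeq starts lie inside longer GENCODE gene models for Mthfd2 and Psat1, and the Asns stretch lies in a GENCODE exon. The core of the C/EBP-ATF response element, TGATGNAA, to which ATF4 binds with a C/EBP partner, was searched on both strands. It was found in 1 of the 10 members, Asns, 23 bases before the start and on the sense strand, and in 1304 of 32851 promoter windows, or 3.97%. The E-box CACGTG was in 0 of the 11 member windows and in 7.15% of all windows. CCAAT, a motif added after the sequences had been read, was in a window of 7 of the 10 members and in 37.4% of all windows on either strand. Mthfd2 had 3 matches and the second Psat1 window 3, 1 of them after the start. These matches describe letters in the windows and were not set against any binding data.

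Per kilobase of exon, which allows genes to be compared, the mean level over the 16 libraries was highest for Atf4, at 33.1 CPM per kb. Shmt2 followed at 14.7 and Mthfd1 at 8.72 CPM per kb, and each of these stood above the next in 16 of 16 libraries. Shmt1 at 2.80 and Mthfd2 at 2.27 CPM per kb did not separate, with Shmt1 above in 10 of 16 libraries. Asns at 1.46, Psph at 1.36 and Psat1 at 1.26 CPM per kb were not separated from their neighbours either, each above the next in 10 and 9 of 16 libraries. Mthfd2 stood above Asns, and Psat1 above Phgdh, in 16 of 16. Phgdh at 0.311 and Mthfd1l at 0.284 CPM per kb were lowest, with Phgdh above in 9 of 16. Of the alternative mitochondrial enzymes, Mthfd2l stood at 1.13 CPM per kb and Aldh1l2, which oxidizes formyl-folate to carbon dioxide, at 2.02 CPM per kb, while the mitochondrial folate carrier Slc25a32 stood at 4.84 CPM per kb. The lowest 2 members are therefore the first enzyme of serine synthesis and the last of the mitochondrial formate route.

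**Figure D1:**
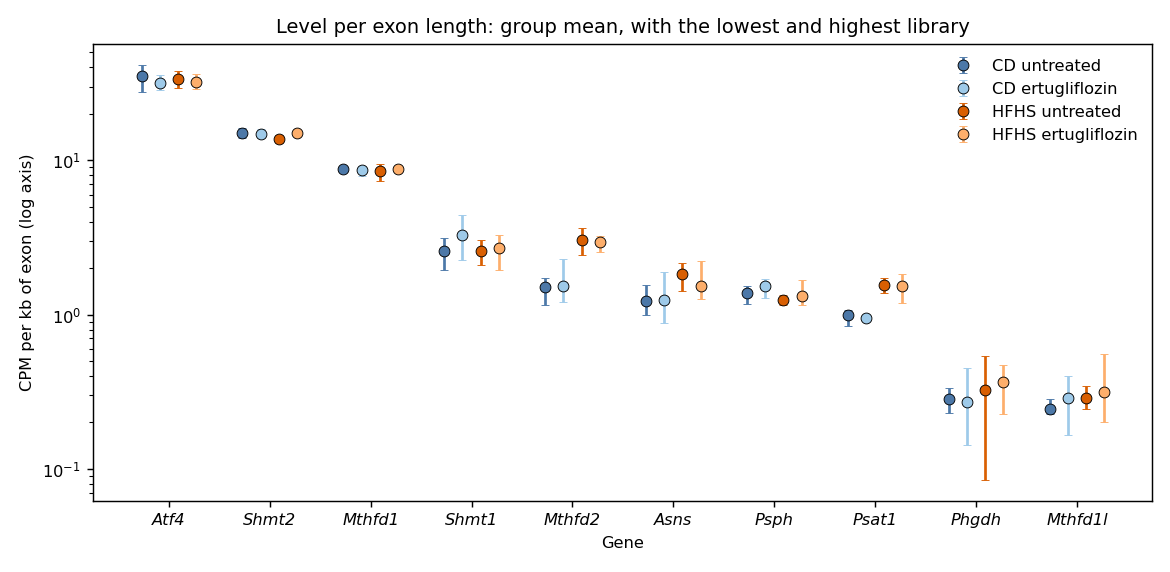
Level of each gene per kilobase of exon (CPM per kb, log axis) in the 4 groups; points are group means of 4 libraries and bars run from the lowest to the highest library. Atf4 stood highest at a mean of 33.1 and Mthfd1l lowest at 0.284 CPM per kb. The HFHS points lie above the CD points for Mthfd2, Psat1, Asns and Phgdh, and the bars of the diets are apart only for Mthfd2 and Psat1.

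Mthfd2, the mitochondrial methylenetetrahydrofolate dehydrogenase and cyclohydrolase, was measured from 63 to 219 counts per library. In CD untreated its level was 4.00, 6.00, 5.52 and 5.69 CPM, and in HFHS untreated 8.51, 11.7, 12.8 and 9.57 CPM. With ertugliflozin it was 4.23, 4.66, 7.99 and 4.60 CPM on CD and 8.87, 10.9, 10.4 and 11.3 CPM on HFHS. All 8 HFHS libraries lay above all 8 CD libraries, and the closest were CD ertugliflozin 3 at 7.99 and HFHS untreated 1 at 8.51 CPM. The means were 5.30 ± 0.893 and 10.6 ± 1.95 CPM without the drug and 5.37 ± 1.76 and 10.3 ± 1.05 CPM with it (SD, n = 4 each).

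The diets were also compared among the treated mice, whose 8 libraries share none with the untreated comparison. Mthfd2 rose on HFHS among treated mice by 0.94 ± 0.18 on the log2 scale (SE; 1.92-fold, 95% interval 1.48 to 2.50), with an adjusted p of 0.00705. In the untreated mice the difference was 1.00 ± 0.18 (log2, SE), given as a description. It was 1.12 ± 0.24 without CD untreated replicates 2 and 3 and 0.89 ± 0.19 without CD untreated replicate 1. Bulk tissue cannot tell a change in the number of cells of a type from a change in RNA per cell, here and in the results that follow.

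**Figure D2:**
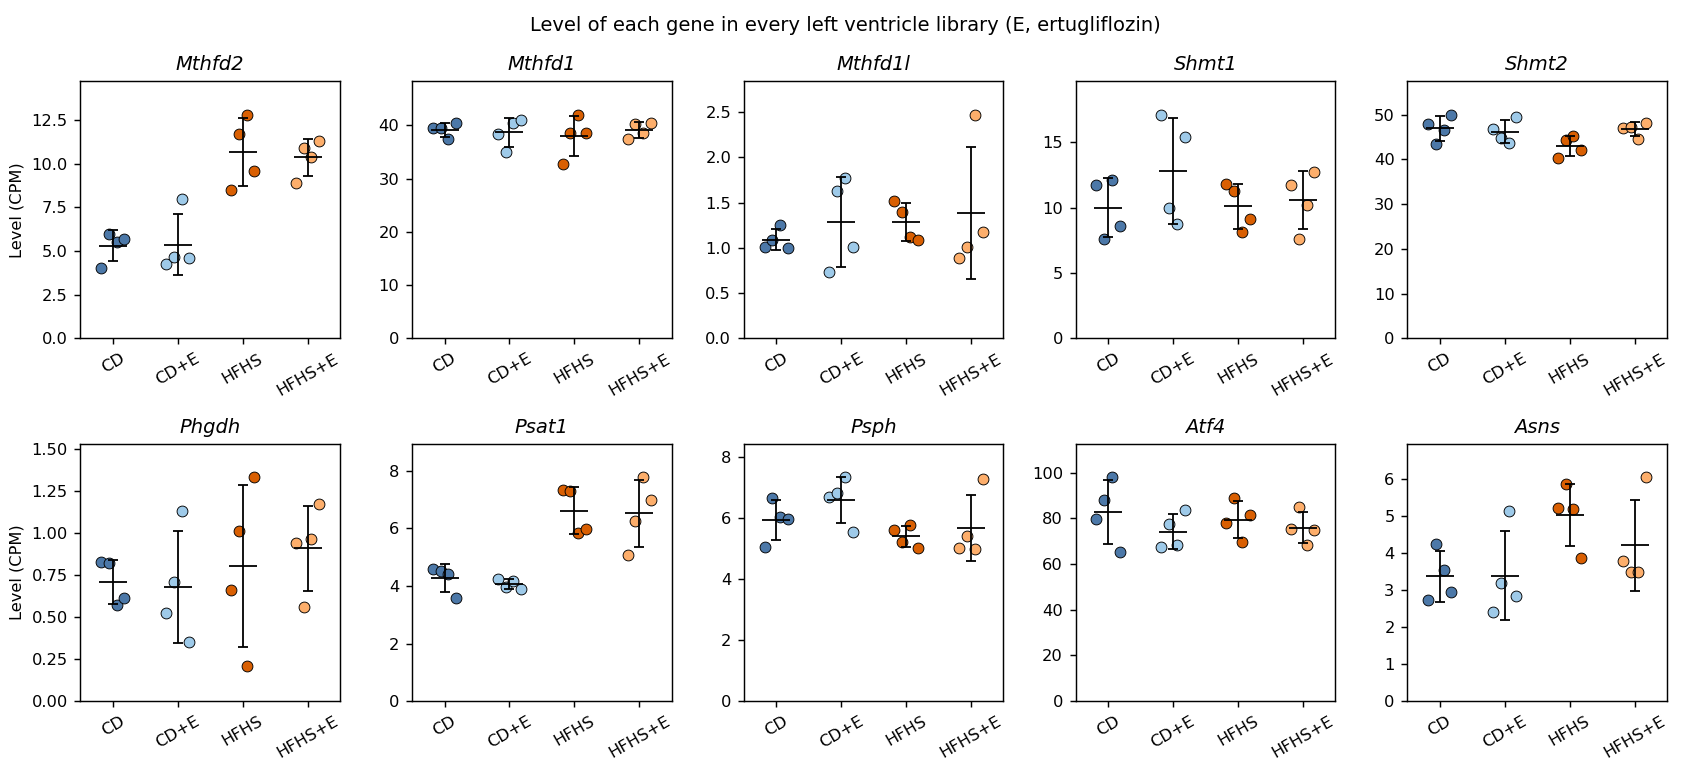
Level of each of the 10 genes (CPM, each panel with its own axis from 0) in every left ventricle library; points are libraries, horizontal lines the mean of 4 and bars the SD, and E stands for ertugliflozin. The HFHS points of Mthfd2 and Psat1 lie above all CD points, while the other 8 genes overlap between the diets.

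Of the 3 enzymes of serine synthesis only Psat1 was called among treated mice, and their differences from each other were not tested. Psat1, the aminotransferase of the middle step, was 4.57, 4.53, 4.42 and 3.57 CPM in CD untreated and 7.32, 7.31, 5.83 and 5.99 CPM in HFHS untreated. With ertugliflozin it was 4.23, 3.96, 4.18 and 3.89 CPM on CD and 5.07, 6.24, 7.77 and 6.99 CPM on HFHS. All HFHS libraries lay above all CD libraries for this gene too. Psat1 rose among treated mice by 0.67 ± 0.13 (log2, SE; 1.59-fold, 95% interval 1.31 to 1.94), with an adjusted p of 0.00795. The untreated difference was 0.63 ± 0.13 (log2, SE), from means of 4.27 ± 0.47 and 6.61 ± 0.813 CPM (SD, n = 4). It was 0.71 ± 0.18 without CD untreated replicates 2 and 3 and 0.66 ± 0.15 without CD untreated replicate 1.

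Phgdh (ENSMUSG00000053398, chromosome 3, 98313170 to 98339990, minus strand) encodes the enzyme that commits the glycolytic intermediate to serine. It was close to the limit of detection, with 3 to 22 counts per library. Its means ran from 0.677 ± 0.332 CPM in CD ertugliflozin to 0.91 ± 0.255 CPM in HFHS ertugliflozin (SD, n = 4). The diet difference among treated mice was 0.43 ± 0.39 (log2, SE; adjusted p = 0.611), and its 95% interval of -0.39 to 1.25 includes differences as large as that of Mthfd2. A diet effect on Phgdh was thus not detectable at this depth. Its processed pseudogene, Phgdh-ps1, had 0 counts.

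Psph (ENSMUSG00000029446, chromosome 5, 129765558 to 129787449, minus strand), the phosphatase of the last step, gave 5.93 ± 0.65 CPM in CD untreated, 6.60 ± 0.751 in CD ertugliflozin, 5.40 ± 0.336 in HFHS untreated and 5.67 ± 1.09 in HFHS ertugliflozin (SD, n = 4). The difference among treated mice pointed the other way from Psat1, at -0.22 ± 0.13 (log2, SE; adjusted p = 0.379; 95% interval -0.49 to 0.05). Psph shares 452 exon bases with Cct6a, which lies on the opposite strand and held 32867 counts over the libraries against 1684 for Psph. The libraries marked strand, but the strand setting of the counting is not given in the sources used here, so part of the Psph count may belong to Cct6a.

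Of the other folate enzymes, Shmt2 and Mthfd1 had narrow intervals around 0 among treated mice. Shmt2 (ENSMUSG00000025403, chromosome 10, 127517123 to 127522444, minus strand), the mitochondrial serine hydroxymethyltransferase, was 47.0 ± 2.77, 46.2 ± 2.57, 43.1 ± 2.22 and 46.8 ± 1.53 CPM in CD untreated, CD ertugliflozin, HFHS untreated and HFHS ertugliflozin (SD, n = 4). Its diet difference among treated mice was 0.02 ± 0.06 (log2, SE), with a 95% interval of -0.10 to 0.14 that lies wholly under the difference in Mthfd2. Without the drug the Shmt2 difference was -0.13 ± 0.06 (log2, SE, 95% interval -0.24 to -0.01), given as a description. Mthfd1 (ENSMUSG00000021048, chromosome 12, 76255298 to 76319803, plus strand), the cytosolic trifunctional enzyme, was 38.0 to 39.2 CPM in the 4 group means, and its treated difference was 0.02 ± 0.07 (log2, SE; 95% interval -0.13 to 0.16). These 2 well-measured neighbours of Mthfd2 in the pathway did not pass the test, with adjusted p of 0.902 for Shmt2 and 0.937 for Mthfd1.

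Mthfd1l (ENSMUSG00000040675, chromosome 10, 3973118 to 4167081, plus strand), the mitochondrial formate-releasing ligase, was measured from 14 to 41 counts per library. Its treated difference of 0.09 ± 0.31 (log2, SE) has a 95% interval of -0.55 to 0.74, so neither a fall nor a rise of that size can be told from none. HFHS ertugliflozin 3 stood at 2.47 CPM, against 0.73 to 1.77 CPM in the other 15 libraries. Shmt1 (ENSMUSG00000020534, chromosome 11, 60788104 to 60811718, minus strand), the cytosolic serine hydroxymethyltransferase, spread widely within groups, from 8.74 to 17.1 CPM in CD ertugliflozin. Its treated difference was -0.28 ± 0.22 (log2, SE; adjusted p = 0.565). Shmt1 shares 184 exon bases with Smcr8 on the opposite strand.

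Atf4 (ENSMUSG00000042406, chromosome 15, 80255184 to 80257541, plus strand), the transcription factor, showed no diet difference beyond its spread. It was 79.8, 88.2, 98.0 and 65.1 CPM in CD untreated and 78.1, 89.0, 69.5 and 81.4 CPM in HFHS untreated. With ertugliflozin it was 67.4, 77.5, 68.4 and 83.7 CPM on CD and 75.3, 85.1, 68.5 and 74.8 CPM on HFHS. The 4 groups overlap throughout, and the treated difference was 0.03 ± 0.11 (log2, SE; adjusted p = 0.913; 95% interval -0.20 to 0.27). ATF4 is controlled largely at translation, which messenger RNA does not measure.

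Asns, asparagine synthetase, was 2.73, 4.25, 3.54 and 2.96 CPM in CD untreated and 5.21, 5.87, 5.19 and 3.87 CPM in HFHS untreated. With the drug it was 2.40, 3.20, 5.15 and 2.83 CPM on CD and 3.80, 3.49, 3.49 and 6.05 CPM on HFHS. The diets overlapped in both arms, by 1 library of each diet without the drug and by more with it. The difference was 0.58 ± 0.23 without the drug and 0.31 ± 0.23 among treated mice (log2, SE), and the latter did not pass (adjusted p = 0.52; 95% interval -0.18 to 0.79). It was 0.09 without HFHS ertugliflozin replicate 4 and 0.58 without CD ertugliflozin replicate 3, with adjusted p of 0.886 and 0.177.

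In all, 2 of the 10 members were called among treated mice, Mthfd2 and Psat1, both higher on HFHS. Of all 15841 genes 3.69% were called there, 2.15% as higher. The count of 2 includes Mthfd2, the gene by which the set was chosen, so it is not read as a result about the set. On the log2 scale the median difference was 0.06 over the 10 members and -0.005 over all genes, with 8 of 10 members and 48.6% of all genes above 0. Among these 8, Mthfd1, Shmt2 and Atf4 stood at 0.02, 0.02 and 0.03. Without the drug the count past the same threshold was also 2 of 10, Mthfd2 and Psat1, beside 2.06% of all genes. That contrast is read here as the one that chose the list, so the count is a description and nothing is read from it. Mthfd2 and Psat1 were also the members whose groups did not overlap, higher on HFHS in both arms, a state found in 4.11% of all genes without the drug and 6.79% among treated mice. The interval of the difference in Mthfd2 between the arms, given with the drug results, spans -0.60 to 0.49 on the log2 scale.

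**Figure D3:**
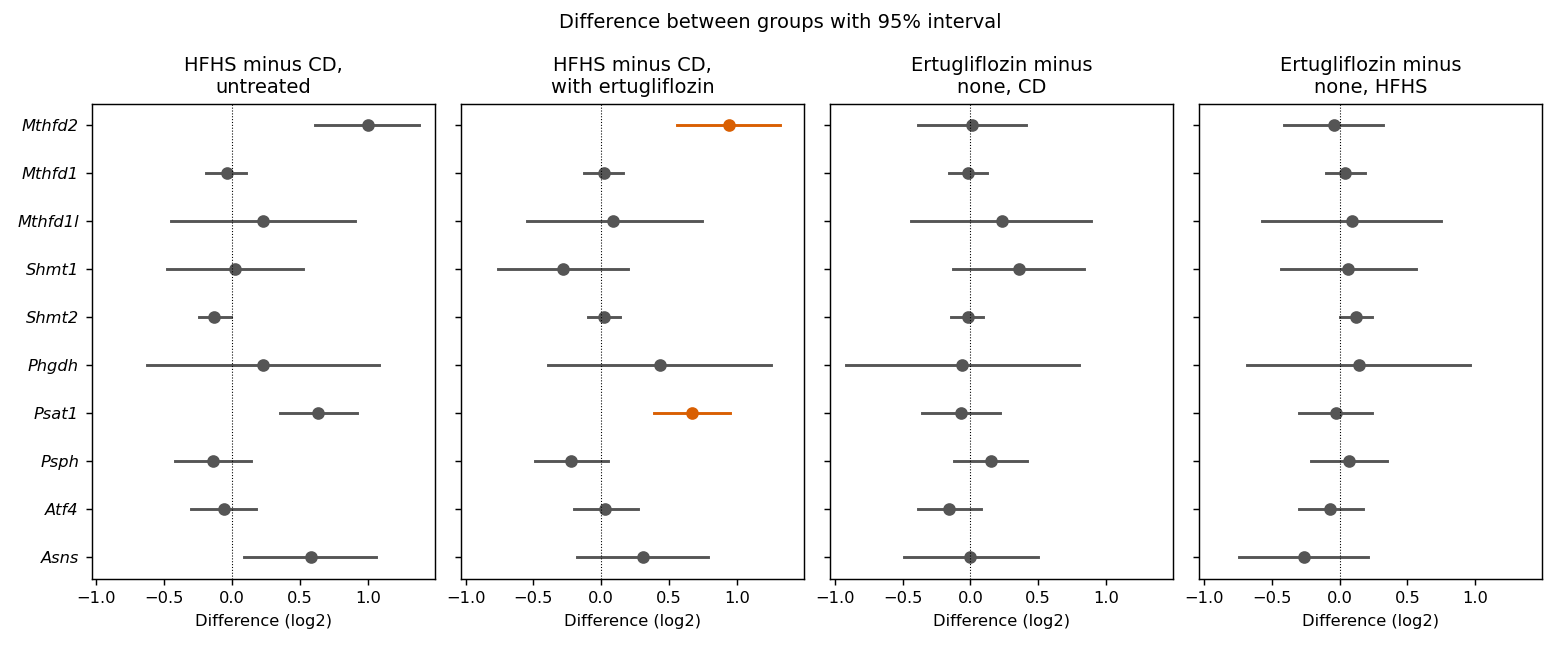
Difference between groups (log2) for each gene in 4 comparisons, as the fitted value with its 95% interval. Orange marks an adjusted p under 0.05 in the comparisons that were tested. The untreated diet comparison, read as the one that chose the list, carries no test. Mthfd2 and Psat1 stand at 0.94 and 0.67 among treated mice, and no gene is marked for the drug.

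Ertugliflozin left the members without a called difference. None of the 10 was called for the drug on CD, the drug on HFHS, the drug averaged over diets or the difference of the drug effects between diets. By edgeR's test 0.0189% of all genes were called on CD, 0% on HFHS, 0% for the average and 0.0189% for the difference of effects, against 978, 637, 882 and 676 genes at an unadjusted p under 0.05. All 4 of these share libraries with the comparison read as having chosen the list, and only the average is balanced over the diets. For Mthfd2 the averaged drug difference was -0.02 ± 0.13 (log2, SE, 95% interval -0.29 to 0.25), from 0.01 ± 0.19 on CD and -0.04 ± 0.17 on HFHS. The value on CD was 0.14 ± 0.25 without CD untreated replicates 2 and 3 and -0.10 ± 0.19 without CD untreated replicate 1. For Psat1 the averaged drug difference was -0.05 ± 0.10 (log2, SE, 95% interval -0.25 to 0.15). In both genes the interval lies wholly under the diet difference among treated mice. The difference of the drug effects on the 2 diets was -0.05 ± 0.26 for Mthfd2 and 0.04 ± 0.19 for Psat1 (log2, SE). The 95% intervals were -0.60 to 0.49 and -0.36 to 0.44. It is also the treated diet difference less the untreated one. The untreated one is read as having chosen the list, so these values are a description. Of the other 8 members, the averaged difference ran from -0.13 in Asns to 0.21 in Shmt1.

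Across the 16 libraries Psat1 and Asns tracked Mthfd2, with correlations of log2 CPM of 0.80 and 0.77. The libraries share diet groups, so part of each value is the diet difference. After the group means were removed the correlation with Mthfd2 was 0.02 for Psat1 and 0.72 for Asns. CD ertugliflozin 3, the CD library with most Mthfd2, was also the CD library with most Asns, at 5.15 CPM, while its Psat1 was 4.18 CPM and among the other CD values. Atf4 gave -0.06 with Mthfd2 over all libraries and -0.12 within groups. Psph and Asns, which had -0.23 and 0.77 with Mthfd2 over all libraries, correlated with each other at 0.75 within groups. These values describe 16 libraries that also share depth and tissue make-up.

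**Figure D4:**
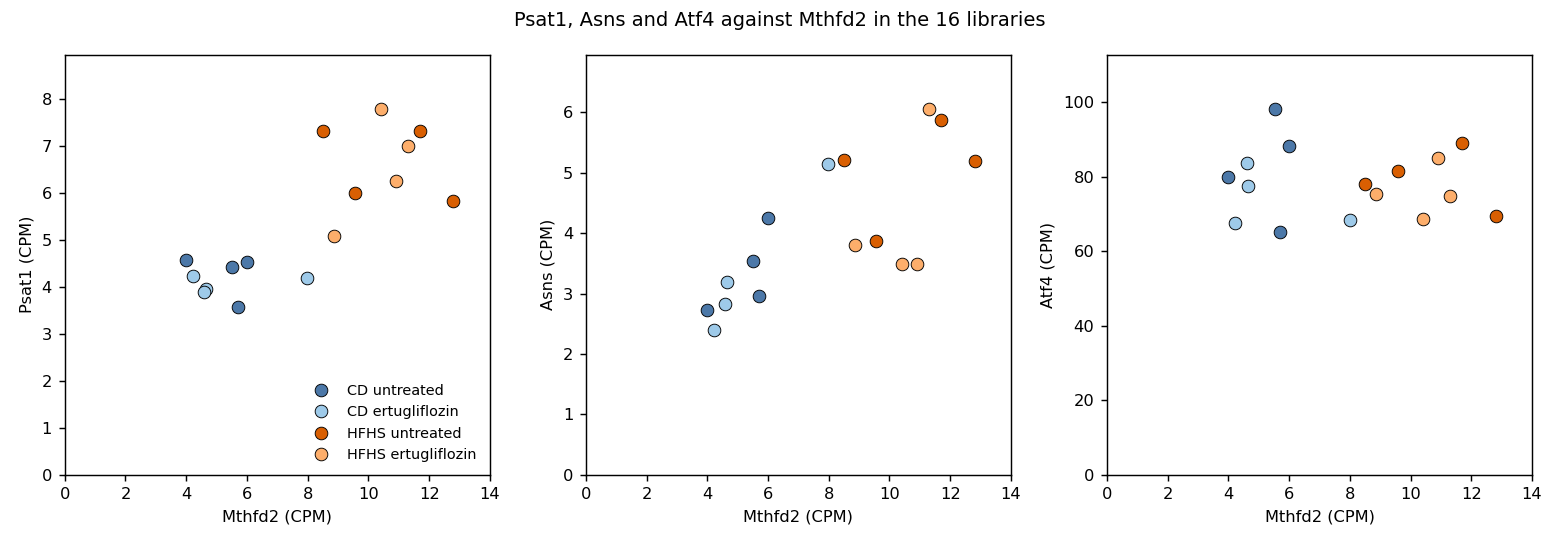
Psat1, Asns and Atf4 against Mthfd2 in each of the 16 libraries (CPM on both axes, from 0), coloured by group. The Psat1 panel shows 2 separate clouds by diet, the Asns panel a slope that includes the CD ertugliflozin library at 7.99 CPM of Mthfd2, and the Atf4 panel no slope (correlation of log2 CPM -0.06).

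Among 10460 genes with a symbol and a mean of at least 5 CPM, those most like Mthfd2 over the 16 libraries were Dab2ip (correlation of log2 CPM 0.93), Olfr1396 (0.92), Smoc2 (0.91), Tln1 (0.90) and Itgb1 (0.90). Among those most opposite were Eno3 (-0.90) and Lrrc4b, Dhrs7c and Cox8a (each -0.89). The median over all these genes was 0.01. Group means were not removed here, so these values include the diet difference by which Mthfd2 was chosen. Values within groups were not computed for these genes. In both arms the genes named as most like Mthfd2 were higher on HFHS, by 0.14 to 0.89 on the log2 scale. Those named as most opposite were lower on HFHS, from -0.12 to -0.89. ITGB1 and talin, the product of Tln1, belong to cell-matrix adhesions, ENO3 is the muscle enolase and COX8A a subunit of cytochrome oxidase.

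Genes around the members were read from lists of related pathways, in the comparison of diets among treated mice, where 3.69% of all genes were called. Of the 17 tested genes of the folate cycle and formate handling 0 were called, 7 were above 0, and the median was -0.01 (log2). Aldh1l2 was 0.34 ± 0.13 (log2, SE; adjusted p = 0.165), Slc25a32 0.16 ± 0.07 (adjusted p = 0.212) and the isozyme Mthfd2l -0.13 ± 0.11 (adjusted p = 0.589). Mthfd2l lay between 5.77 and 8.59 CPM in all libraries. The step that Mthfd2 shares with Mthfd2l thus had 1 called gene and 1 that did not pass, and their difference from each other was not tested.

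Of the 24 tested genes known as ATF4 targets outside the members, 1 was called, 20 were above 0 and the median was 0.13 (log2), beside 48.6% of all genes above 0. The called gene was Pycr1, which makes proline in mitochondria. Its level was 1.04, 1.14, 1.39 and 0.809 CPM in CD ertugliflozin and 1.97, 2.53, 1.93 and 2.11 CPM in HFHS ertugliflozin, groups that do not overlap. It rose by 0.96 ± 0.21 (log2, SE; adjusted p = 0.0156), and without HFHS ertugliflozin replicate 2 by 0.87 (adjusted p = 0.0607). In untreated mice the value was 0.19 ± 0.22, with HFHS libraries at 1.45 to 1.70 CPM and CD libraries at 0.824 to 1.62 CPM. The difference between the arms was 0.77 ± 0.30 (log2, SE; adjusted p = 1).

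Further named genes downstream of ATF4 did not pass. Gdf15, a secreted stress hormone, was 0.57 ± 0.43 (log2, SE; adjusted p = 0.534), with HFHS untreated 2 at 7.74 CPM against 1.01 to 4.93 CPM elsewhere. Trib3 was 0.11 ± 0.16, Ddit3 0.06 ± 0.13, Sesn2 0.13 ± 0.13 and Pck2 0.08 ± 0.10 (log2, SE). Fgf21, with 7 counts at most in a library, was not tested. In the untreated mice 14 of the 24 targets were above 0, with a median of 0.08 and 0 called.

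In the remaining lists at most 1 gene each was called, beside 3.69% of all genes, so the single calls are not read as results about their lists. Of 13 tested genes of the methionine cycle and transsulfuration, Gnmt, which uses S-adenosylmethionine to methylate glycine, fell by 1.30 on the log2 scale (SE 0.33; adjusted p = 0.0337). CD ertugliflozin 2 stood at 5.64 CPM against 1.72 to 2.63 CPM in the other 3 of its group and 1.08 to 1.29 CPM in HFHS ertugliflozin. Without that library the Gnmt difference was -0.78 (adjusted p = 0.09), and the call was also lost without CD ertugliflozin 4 or any 1 of the HFHS ertugliflozin libraries, with adjusted p from 0.0504 to 0.107. Over all 27 alternatives Gnmt passed in 17.

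Of 13 tested genes of serine and glycine transport and breakdown 1 was called, the mitochondrial glycine carrier Slc25a38, at -0.28 ± 0.07 (log2, SE; adjusted p = 0.0216), from 21.3 to 25.4 CPM on CD to 18.7 to 20.3 CPM on HFHS. The median of that list was -0.11 (log2). Without 1 library, any of CD ertugliflozin 1, 2 and 4 and HFHS ertugliflozin 1 and 3, its adjusted p was 0.051 to 0.0733, and it passed in 22 of 27 alternatives. Of 10 mitochondrial chaperones and proteases 1 was called, Hspe1, the small subunit of the mitochondrial chaperonin. It was 51.9 to 57.3 CPM in CD ertugliflozin and 43.0 to 45.8 CPM in HFHS ertugliflozin, a fall by 0.31 on the log2 scale (SE 0.05; adjusted p = 0.00243).

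Of 13 genes that sense stress upstream of ATF4 1 was called, Eif2s1, the regulated subunit of eIF2, at -0.20 ± 0.05 (log2, SE; adjusted p = 0.0445), and the call was lost without any 1 of 11 libraries (adjusted p up to 0.146). It passed in 13 of 27 alternatives. Of 20 cytosolic aminoacyl-tRNA synthetases, many of them ATF4 targets, 1 was called, Lars, at 0.19 ± 0.05 (log2, SE; adjusted p = 0.0294), lost without any 1 of 6 libraries (adjusted p up to 0.0948). Lars passed in 19 of 27 alternatives, and the median of its list was 0. Endoplasmic reticulum stress genes had 0 of 18 called and 3 above 0, with a median of -0.09 (log2). Purine synthesis had 0 of 11 called, 4 above 0 and a median of -0.05, and cell cycle genes had 0 of 18 called, 13 above 0 and a median of 0.13. In untreated mice 17 of 18 cell cycle genes were above 0, with a median of 0.19 and 0 called. In the same arm 1 of 13 genes of the methionine cycle and 3 of 18 endoplasmic reticulum stress genes were above 0. No gene of these lists was called for the drug. Without the drug the lists held 1 called gene, Ppp1r15b, which directs dephosphorylation of eIF2, at 0.25 ± 0.06 (log2, SE), named because it was the only one.

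**Figure D5:**
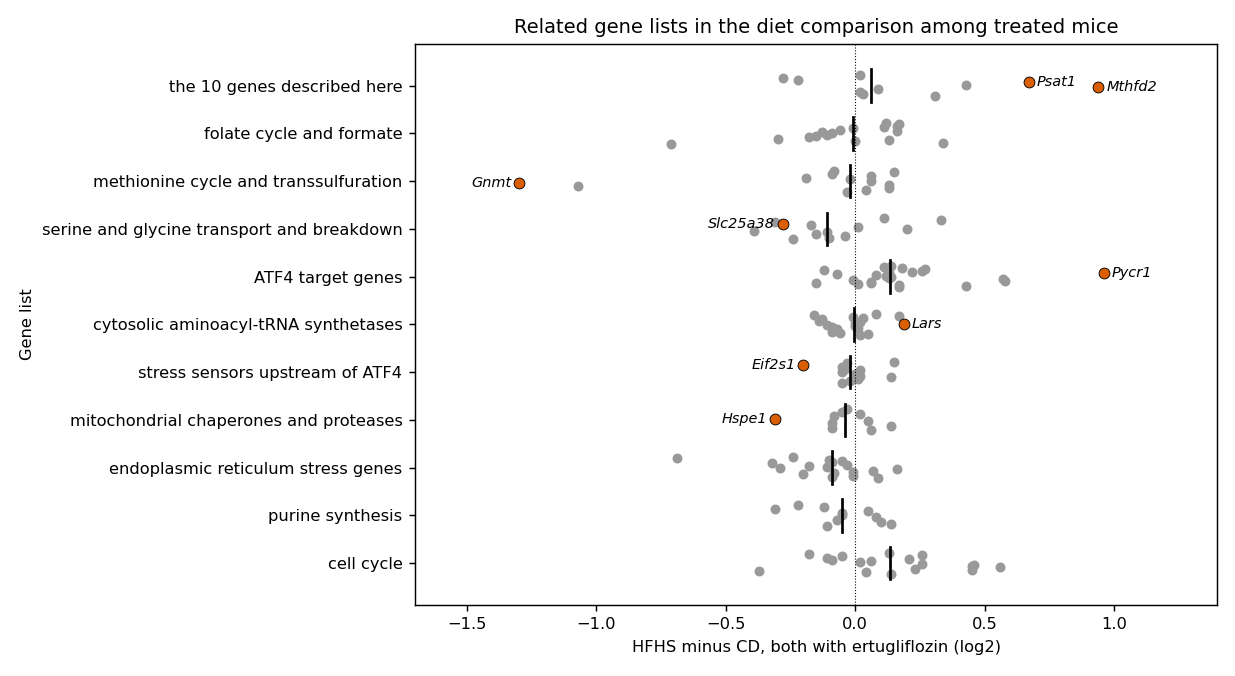
Difference between HFHS and CD among treated mice (log2) for every tested gene of the members and of 10 related lists; vertical bars mark list medians and orange points an adjusted p under 0.05. Mthfd2 and Psat1 stand to the right of the other members, Pycr1 at 0.96 to the right of the other ATF4 targets, and most lists centre near 0.

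Some markers of cell types also differed by diet among treated mice, where 3.69% of all genes were called. Their part in the differences of Mthfd2 and Psat1 was not tested. Among treated mice 5 of 10 ventricular cardiomyocyte markers were called lower, namely Myl2, Myl3, Tnnt2, Tnni3 and Pln, with log2 differences between -0.25 and -0.19. The list summed to 111000 to 122000 CPM in CD ertugliflozin and 106000 to 113000 CPM in HFHS ertugliflozin. Of 10 fibroblast markers 1 was called, Pdgfra at 0.25 ± 0.07 (log2, SE), with sums of 2620 to 3400 and 3320 to 3690 CPM. Of 10 endothelial markers 0 were called and 8 were above 0, with sums of 1950 to 2120 and 2130 to 2470 CPM. None of these markers was at 0. The log2 differences of single markers ran from -0.25 to 0.09 for ventricular, -0.09 to 0.71 for fibroblast and -0.18 to 0.22 for endothelial genes, with medians of -0.12, 0.32 and 0.08.

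Macrophage markers had 0 of 10 called and 0 above 0, with a median of -0.39 (log2) and sums of 438 to 617 CPM in CD ertugliflozin and 369 to 447 CPM in HFHS ertugliflozin. Erythroid markers had 0 of 7 tested called and a median of -0.33 (344 to 433 and 271 to 359 CPM). No tested marker of either list was at 0 in a group. Smooth muscle and pericyte markers had 0 of 10 called, atrial markers 0 of 9, valve markers 0 of 7 and lymphocyte markers 0 of 5. Adipocyte markers had 1 of 6 called, Cidea at 0.58 ± 0.06 (log2, SE). In that list 3 of 6 were above 0, with a median of -0.13 and single markers from -3.70 to 0.77. Nerve and Schwann cell markers had 1 of 5 called, Dbh at 1.06 ± 0.25 (log2, SE), with 3 above 0 and a median of 0.08. In the untreated arm all 10 endothelial markers were above 0, with a median of 0.28, and 2 of them, Cdh5 and Kdr, were called. The other shifts were not all seen there. Untreated medians were -0.12 for ventricular, -0.01 for fibroblast, -0.02 for macrophage and 0.12 for erythroid markers, with 0, 1, 0 and 0 called. The correlation of Mthfd2 with a library's mean marker level over the 16 libraries was -0.64 for ventricular, 0.52 for endothelial and 0.42 for fibroblast markers, as a description.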

How the data were processed

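Left ventricular RNA of 16 mice was poly(A)-selected and made into strand-marked libraries, per the labels' protocols. The authors deposited whole read counts per gene, not normalized, and regularized log2 values, which served here as 1 alternative input. The submitters' processing notes name STAR 2.6.0c, featureCounts, Subread 1.6.2, FastQC 0.11.7, DESeq2 1.22.1 and mm10; no source used here gives the annotation or the strand setting. GENCODE M21 (GRCm38) gave symbols for 53669 of 53764 genes, and coordinates and exon lengths.

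The count test was edgeR 4.0.16 (R 4.3.3), with genes kept by filterByExpr and libraries scaled by TMM. All 16 libraries entered 1 fit of 4 group means, and glmQLFTest (robust) p-values were adjusted by Benjamini-Hochberg over 15841 genes, with a threshold of 0.05. The common biological coefficient of variation was 0.0947. The SE is the size of the log2 difference divided by the square root of F. Correlations and marker levels use log2 CPM with a prior count of 2. The chi-square of 2 libraries of a group, divided by its degrees of freedom, was 3.24 to 16.3, so each was counted as 1 sample. The test was tried on simulated counts first. Depth sets the precision: 63 to 219 counts per library for Mthfd2, 3 to 22 for Phgdh.

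Named are the 10 members, list genes called in a diet (treated) or drug comparison (up to 4 a list), 9 preset genes, and the 5 genes most and 5 least correlated with Mthfd2, of which 1 is not reported here. Marker genes, Ppp1r15b and the CCAAT motif were named after their values were seen. The members and all lists were chosen with earlier results of these data known. Alternatives were scaling by RLE or upper quartile, a filter of 1 CPM in 4 libraries or none, DESeq2 1.42.0, limma 3.58.1 (voom, and on the deposited log2 values), a replicate block, only the groups compared, valve and atrial scores as covariates, and libraries left out.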

Additional observations from a re-analysis of the deposited data

Results flagged for a closer look

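Of 40 sets of 4 libraries (10 genes in 4 groups), 3 held a library whose gap to its nearest neighbour took more of the group's range than Dixon's 95% critical value for 4 samples allows; chance gives about 1 in 20. Mthfd2 stood at 7.99 CPM in CD ertugliflozin 3, against 4.23 to 4.66 CPM in the other 3. Without that library the diet difference among treated mice was 1.20 on the log2 scale (adjusted p = 0.000377). Psat1 stood at 3.57 CPM in CD untreated 4, below 4.42 to 4.57 CPM in the rest of its group. Asns stood at 6.05 CPM in HFHS ertugliflozin 4, above 3.49 to 3.80 CPM in the others. Without that library the diet difference in Asns among treated mice was 0.09 in place of 0.31 on the log2 scale (adjusted p = 0.886).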

How the results depend on the processing

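Mthfd2 and Psat1 were both called among treated mice under all 27 alternatives. The difference ran from 0.39 to 1.20 for Mthfd2 (highest adjusted p 0.0276, without CD ertugliflozin replicate 2) and from 0.23 to 0.78 for Psat1 (highest 0.0323, without HFHS ertugliflozin replicate 3); the lowest values are those of the deposited regularized log2 table, which shrinks differences by construction. No drug comparison called a member under any alternative run; for the average and the difference of effects a fit of only the groups compared was not run. In the untreated diet comparison, read as the one that chose the list, the 2 called members became 1 (Mthfd2) with only the groups compared. They became 0 with valve and atrial scores as covariates and 0 without CD untreated replicates 2 and 3 together. With single libraries left out 1 to 2 were called, 1 (Mthfd2) without CD untreated replicate 4 and without HFHS untreated replicate 2. Over all genes the 327 calls of that comparison became 135 with only the groups compared, 0 with the covariates and 98 without CD untreated replicates 2 and 3. With the covariates the difference was 1.24 ± 0.26 for Mthfd2 and 0.86 ± 0.2 for Psat1 (log2, SE), given as a description. With the replicate number as a block 2 members were called among treated mice, of 550 genes against 584. The mean correlation of same-numbered libraries was 0.037, over 0.1 in 6 of 24 pairs. For libraries of other numbers it was -0.012, over 0.1 in 12 of 72 pairs. Whether the numbers pair the animals cannot be told from these values. Over all genes, the 584 calls among treated mice became 906 with DESeq2, 845 with voom and 280, 303, 335, 389 and 363 without HFHS ertugliflozin replicates 1, 2 and 3 and CD ertugliflozin replicates 2 and 3, each left out alone. Of 50 single-member results outside the diet comparison without the drug, 30 changed sign under some alternative, none of them called. DESeq2 gave no adjusted p for 2 members among treated mice. Depth limits Phgdh and Mthfd1l most.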
